A study of Mus musculus with 8 samples.

Results

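The genes described here make cholesterol and fatty acids, or control that synthesis. They were chosen as a list of 30 gene symbols. Each was read from the probe set annotated to that symbol alone, and where a gene had several the one with the highest mean over all arrays was used. Of the 30 genes, 29 had such a probe set, and all 29 of these passed the filter on low values, out of 13196 genes that passed it in the whole series. The expression of the remaining gene, Acat2, a cytosolic acetoacetyl-CoA thiolase, was not analysed here.

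Expression was read from 8 Affymetrix arrays of total RNA, 2 in each of 4 groups: RAW co-culture, RAW alone, CT26 co-culture and CT26 alone. RAW264, here RAW, is a macrophage line of the mouse, and CT26 is a mouse line from an epithelial tumour of the colon. In co-culture RAW cells sat in a transwell insert above CT26 cells in the well, so that soluble molecules passed but cells did not touch. The whole experiment was done on 2 occasions, each giving 1 array per group. None of the groups carried a mutation or drug that the labels name, and the length of the co-culture is not given in the sources used here. Trypsin was used to detach CT26 cells, while RAW cells went into lysis reagent directly, so line and harvest cannot be told apart. Nothing states that samples of 1 occasion came from separate cultures, and the p-values measure the spread between 2 arrays per group.

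Cholesterol is built from acetyl-CoA by way of mevalonate and squalene, and squalene is then cyclised and trimmed to the sterol. Fatty acids start from the same acetyl-CoA, which acetyl-CoA carboxylase turns into malonyl-CoA for chain building, elongation and desaturation. Both branches are driven by the SREBP transcription factors, which the escort protein Scap carries out of the endoplasmic reticulum when sterols are low and which the Insig proteins hold back when sterols are plentiful. In macrophages the balance of sterol synthesis, uptake and efflux decides how much cholesterol the cell stores.

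Values are log2 expression units, in which a difference of 1 is a doubling, and they are relative levels within an array. Array medians lay between 5.88 and 5.94, and the floor below which a probe set counted as dim lay between 5.21 and 5.28. Macrophage markers separated the lines. The summed level of 16 macrophage markers was 196.5 and 200.2 in RAW co-culture and 198.5 and 201.6 in RAW alone, against 91.6 and 93.2 in CT26 co-culture and 92.6 and 93.8 in CT26 alone. Lyz2, the lysozyme gene, was at 6.43 or less on every CT26 array. Cd14 was the highest of the 16 there, at 10.04 to 10.29, against 14.43 to 14.75 on RAW arrays. Of the 16, 8 to 11 lay above the floor on each CT26 array. All 16 were lower in CT26 alone than in RAW alone on both occasions. Epithelial markers of CT26 were mixed. Keratin 18 (Krt18) was at 4.60 to 5.42 in RAW arrays and 9.97 to 10.20 in CT26 arrays. Keratin 20 (Krt20) was at 4.68 to 5.07 in RAW and 11.46 to 11.55 in CT26 arrays, and the junction gene Tjp1 at 4.38 to 4.68 in RAW and 11.49 to 11.75 in CT26 arrays. E-cadherin (Cdh1) and villin (Vil1) were below the floor on all 8 arrays, and Epcam lay between 6.82 and 7.15 in both lines. The collagen gene Col1a2, a mesenchymal marker, was at 6.43 and 6.18 in RAW co-culture and 6.52 and 6.33 in RAW alone, and at 13.52 to 13.70 in CT26 arrays. Vimentin (Vim) was high in both lines, at 14.06 to 14.67 in RAW and 14.70 to 14.88 in CT26 arrays. Tagln lay between 5.13 and 5.43 on all 8 arrays. Cav1 was at 8.55 to 11.17 in RAW and 13.44 to 13.46 in CT26 arrays. Of 16 epithelial and mesenchymal markers, 13 were tested. Of these, 9 were lower in RAW alone than in CT26 alone (limma, adjusted p under 0.05), where 17.6% of all genes were. In bulk RNA such as this, fewer cells of a type and less RNA per cell cannot be told apart.

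**Figure D1:**
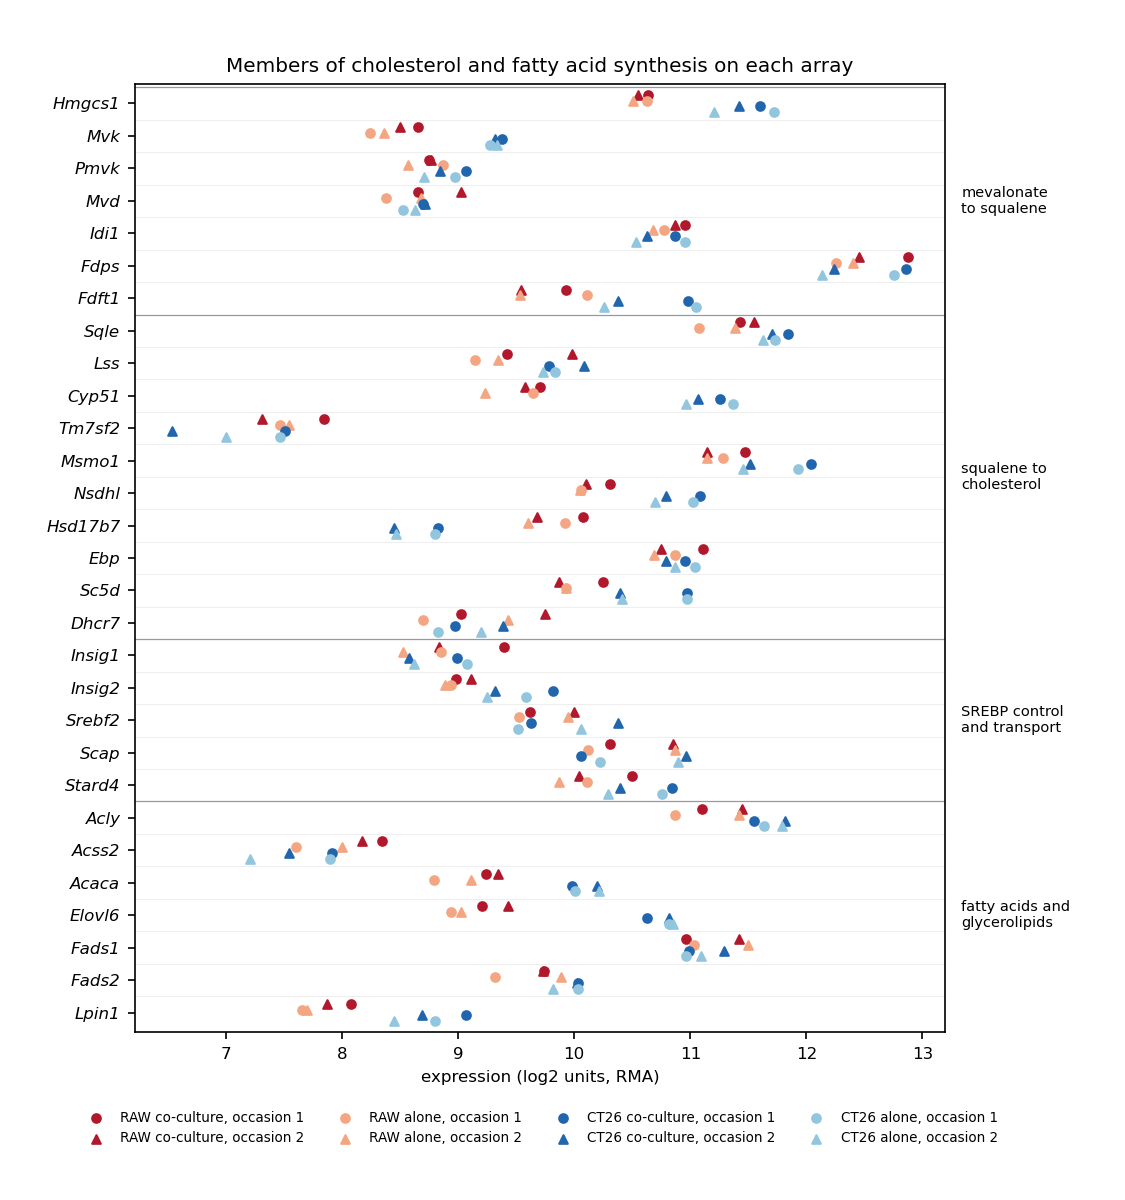
Expression of the 29 measured genes in log2 units, with 1 point per array, circles for occasion 1 and triangles for occasion 2, and genes ordered by role. Cyp51 and Elovl6 show RAW arrays (red) far left of CT26 arrays (blue), and Hsd17b7 shows the reverse; levels are comparable within a gene, not between genes.

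The first question was whether these genes moved in RAW macrophages when CT26 products could reach them. In RAW co-culture against RAW alone, 0 of 29 genes passed an adjusted p of 0.05 (limma, Benjamini-Hochberg over all 13196 genes), where 0.25% of all genes passed. The smallest adjusted p among them was 0.900. At an unadjusted p under 0.05 there were 2, Mvk and Elovl6, of 29, against 694 of 13196 genes. The replicate numbers mark the occasions, and with occasion as a block the count was also 0, both with a block shared by the lines (1.11% of all genes) and with a block within each line (3.56%). At an unadjusted p under 0.05 there were then 9 of 29 with the shared block (1625 of 13196 genes) and 12 of 29 with the block within each line (2418). The smallest adjusted p was 0.124 with the shared block and 0.0616 with the block within each line, both for Insig1.

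The sizes were small and mostly positive. The mean change was above 0 for 27 of 29 genes, against 52% of all genes, with a median of 0.15 against 0.01 log2 units. On both occasions 22 were higher in co-culture, against 32.5% of all genes, 1 was lower on both (Fads1, where 29.1% of all genes were), and 6 went opposite ways. Both co-culture arrays lay above both RAW alone arrays for 11 genes, against 14.2% of all genes, and below them for 0 genes (12.3%). The median was 0.27 on occasion 1 and 0.14 on occasion 2. Without the second RAW alone array the median was 0.26, and that omission also breaks the pairing of the samples.

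**Figure D2:**
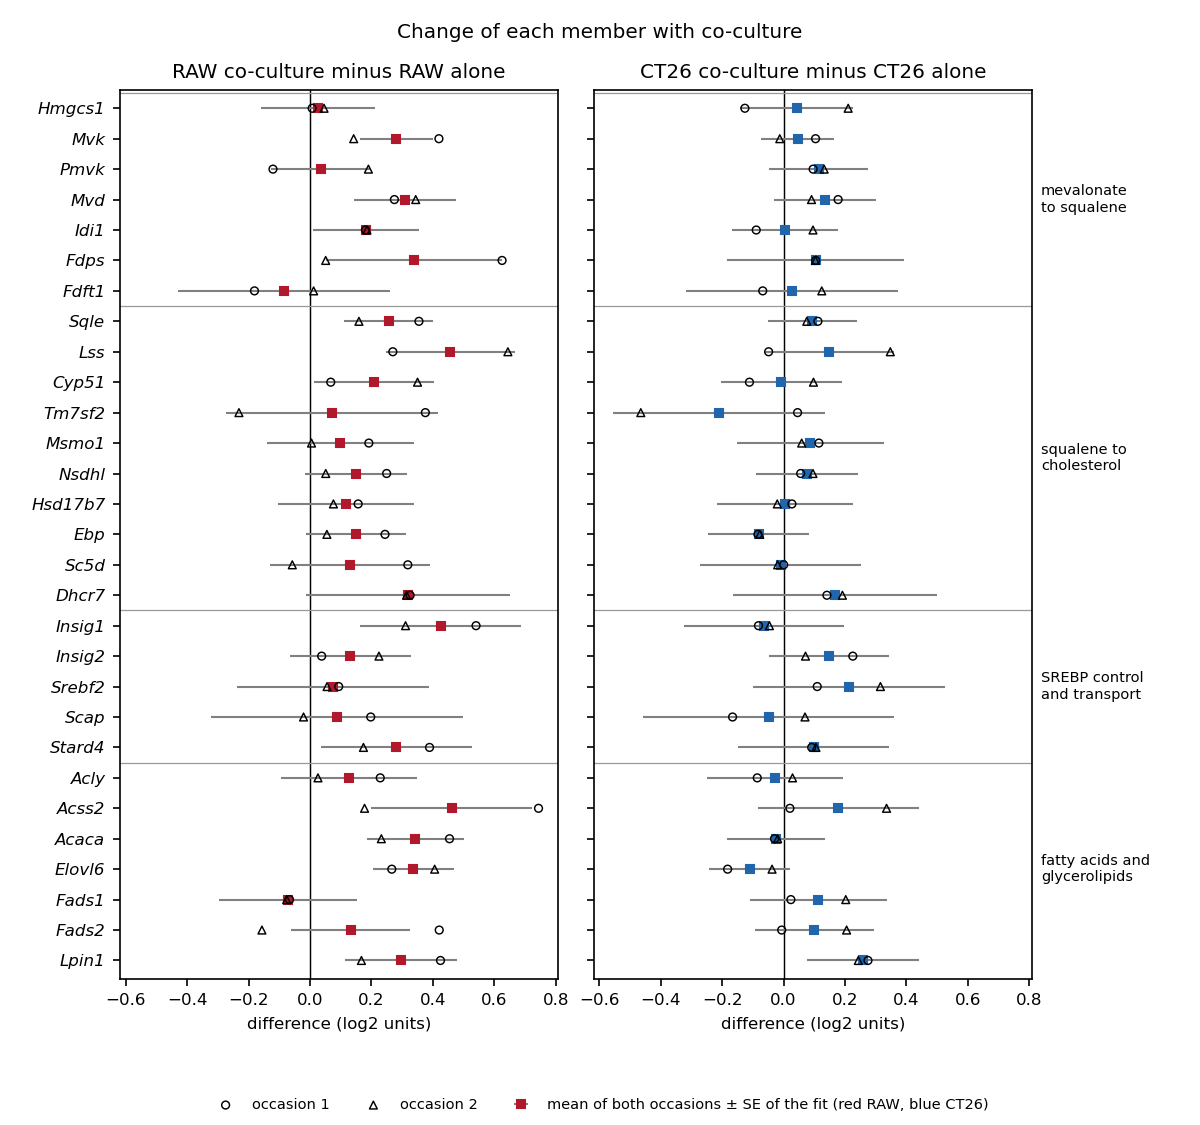
Co-culture minus alone for each gene in RAW (left) and CT26 (right), in log2 units, with squares for the mean and bars for the SE of the fit (n = 2 arrays per group), circles for occasion 1 and triangles for occasion 2. In RAW 27 of 29 means lie right of 0 and in CT26 20 do, and no gene passed the test in either line.

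Among the enzymes from acetyl-CoA to squalene, 6 of 7 had a positive mean, with a median of 0.18. Mvk, mevalonate kinase, was 8.66 and 8.50 in RAW co-culture and 8.24 and 8.36 in RAW alone. Its groups did not overlap, and the difference was 0.28 ± 0.12 (SE, n = 2 per group, limma adjusted p = 0.947). Mvd, which decarboxylates mevalonate diphosphate, was 8.66 and 9.03 in RAW co-culture and 8.38 and 8.68 in RAW alone. The occasion 1 co-culture array lay just below the occasion 2 alone array, so the groups overlapped, and the difference was 0.31 ± 0.17. It was 0.49 without the first co-culture array, 0.13 without the second and 0.16 without the first RAW alone array. Fdps, farnesyl diphosphate synthase, was 12.88 and 12.45 in RAW co-culture and 12.25 and 12.40 in RAW alone. Its difference of 0.34 ± 0.29 came mostly from occasion 1, where it was 0.63, against 0.05 on occasion 2. Hmgcs1, the HMG-CoA synthase of the cytosol, was level at the probe set used, at 10.63 and 10.55 in RAW co-culture and 10.63 and 10.50 in RAW alone. Its other tested probe sets differed by 0.02, 0.11 and 0.33. The last, 1433446_at, did not overlap (9.65 and 9.56 in RAW co-culture, 9.29 and 9.25 in RAW alone). Pmvk (0.03), Idi1 (0.18) and Fdft1 (-0.08) encode phosphomevalonate kinase, isopentenyl diphosphate isomerase and squalene synthase. The Hmgcs1 and Fdft1 values came from probe sets of the kind that can cross-hybridise (_x_at). The 3 other tested probe sets of Fdft1 had positive differences of 0.14 to 0.20.

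All 10 enzymes from squalene to cholesterol had a positive mean in RAW, with a median of 0.15 and a range from 0.07 for Tm7sf2 to 0.46 for Lss. Lss, lanosterol synthase, closes the sterol rings, and was 9.42 and 9.99 in RAW co-culture against 9.15 and 9.34 in RAW alone. Both co-culture arrays were above both alone arrays, with a difference of 0.46 ± 0.21 (unadjusted p = 0.0672). It was 0.74 without the first co-culture array and 0.17 without the second. Sqle, squalene epoxidase, was 11.43 and 11.55 in RAW co-culture and 11.07 and 11.39 in RAW alone, again without overlap, and differed by 0.26 ± 0.15. Dhcr7, which carries out a last reduction to cholesterol, differed by 0.33 and 0.31 on the separate occasions, yet its groups overlapped (9.03 and 9.75 in RAW co-culture, 8.70 and 9.43 in RAW alone), since occasion 2 was higher in both.

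Of the genes of SREBP control and sterol transport, all 5 had a positive mean, with a median of 0.13. Insig1, a sterol-dependent anchor of Scap and itself an SREBP target, was 9.39 and 8.84 in RAW co-culture and 8.85 and 8.53 in RAW alone. It was higher in co-culture by 0.54 on occasion 1 and by 0.31 on occasion 2, while the second co-culture array lay just below the first alone array. The mean difference was 0.43 ± 0.26 (adjusted p = 1.00 without a block). Stard4, a carrier of cholesterol between membranes, differed by 0.28 ± 0.25. Srebf2 and Scap, which encode the sterol-regulating SREBP and its escort, differed by 0.07 ± 0.31 and 0.09 ± 0.41, and Insig2, the second Insig gene, by 0.13 ± 0.20. With a block within each line the SEs of Srebf2, Scap and Insig2 were 0.09, 0.10 and 0.09. The other Srebf2 probe set, 1426744_at, was 9.05 and 9.97 in RAW co-culture and 8.50 and 9.74 in RAW alone. It differed by 0.38 ± 0.51, with overlap, and was higher in co-culture on both occasions. With a block within each line its SE was 0.12 and its limma adjusted p over all probe sets 0.187. The other Insig2 probe sets differed by 0.08 and -0.15.

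The genes of fatty acid and glycerolipid synthesis had the largest median of the 4 roles, 0.30, with 6 of 7 means positive. Elovl6 elongates palmitate-length chains, and was 9.20 and 9.43 in RAW co-culture and 8.94 and 9.02 in RAW alone. Its groups did not overlap, and its difference of 0.34 ± 0.13 had the smallest unadjusted p of the list, 0.0394. Without the second co-culture array it was 0.22. Acaca, acetyl-CoA carboxylase, was 9.24 and 9.34 in RAW co-culture and 8.79 and 9.11 in RAW alone, a difference of 0.34 ± 0.16 without overlap, which was 0.18 without the first RAW alone array. Acss2, which makes acetyl-CoA from acetate, had 8.35 and 8.17 in RAW co-culture and 7.60 and 8.00 in RAW alone, and its mean difference of 0.46 ± 0.26 was made of 0.74 on occasion 1 and 0.18 on occasion 2. Lpin1, a phosphatidate phosphatase of triglyceride synthesis, differed by 0.30 ± 0.18 without overlap. Acly, ATP citrate lyase, differed by 0.13, and the desaturase genes Fads2 and Fads1 by 0.13 and -0.07.

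The precision bounds what could be seen. The 95% confidence intervals of the RAW changes had a median half-width of 0.50, and reached at most 1.11 upward and -0.91 downward over the 29 genes. With a block within each line they spanned at most -0.34 to 0.81. The ± values of the co-culture and between-line comparisons come from the fit without a block, so they include any shift between the occasions. The median SE of the RAW changes over the 29 genes was 0.21 without a block and 0.09 with a block within each line. The intervals lay above 0 for 2 genes without a block, Mvk and Elovl6, and for 12 with a block within each line, Insig1 and Lss among them, before any adjustment for the number of genes. An absence of change was not shown for the others.

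Other probe sets of the same genes gave a second reading. The 29 genes had 70 probe sets, 22 genes having several, and 35 of the 41 not used above passed the filter. Of these 35, 30 had a positive mean difference in RAW co-culture against RAW alone, and 28 had the sign of the probe set used for the gene. Without a block 0 of the 35 passed, and with a block within each line 3 did. The shares over all 28287 tested probe sets were not computed. Over all genes 0.25% passed without a block and 3.56% with it, and 52% had a positive mean. The second Lpin1 probe set, 1418288_at, was 7.69 and 7.28 in RAW co-culture and 6.44 and 6.24 in RAW alone, a difference of 1.14 ± 0.23 (adjusted p over all probe sets 0.294 without a block and 0.00468 with it). It was thus several times the 0.30 read by the brighter probe set. The second Acaca probe set, 1427595_at, was 6.92 and 6.79 in RAW co-culture and 6.08 and 5.87 in RAW alone (adjusted p 0.962 without a block and 0.0197 with it), a difference of 0.88. The third, Msmo1 probe set 1459627_at, lay just above the floor, with a mean of 5.40, and differed by 0.52 (0.397 without a block and 0.0487 with it). Fitting each probe set on its own was chosen after the values were seen.

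**Figure D3:**
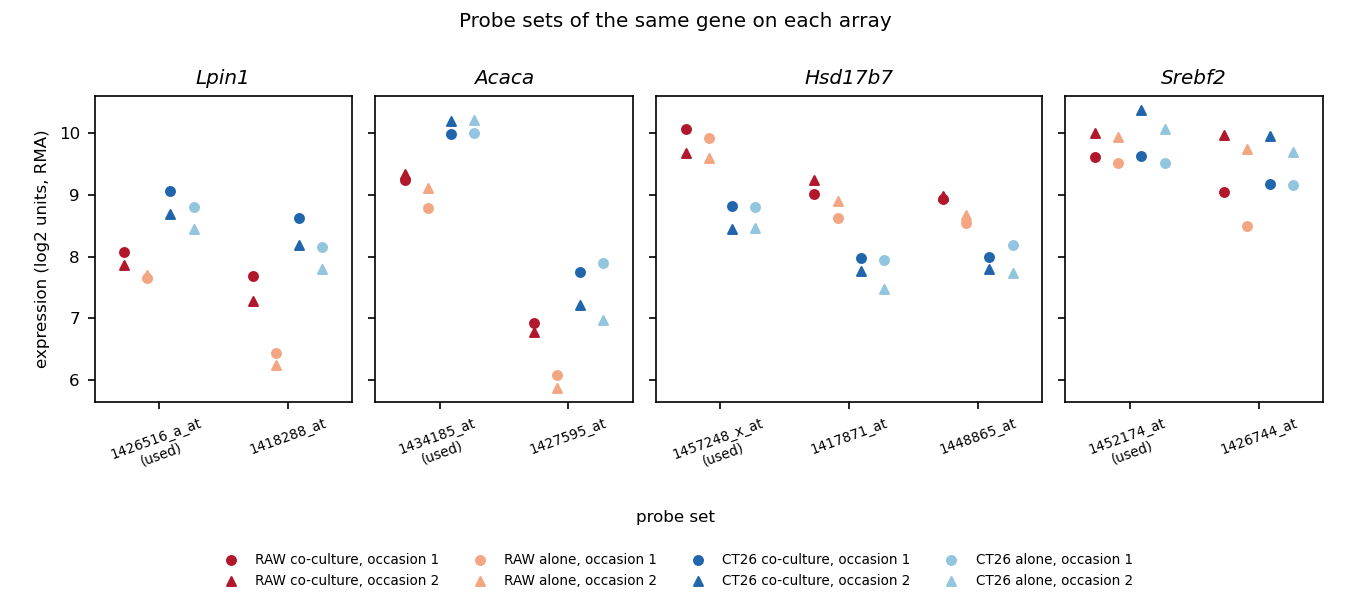
Log2 expression on each array for the tested probe sets of Lpin1, Acaca, Hsd17b7 and Srebf2, with RAW co-culture, RAW alone, CT26 co-culture and CT26 alone from left to right within each probe set. For Lpin1 the gap between RAW co-culture and RAW alone is 0.30 at the probe set used and 1.14 at the other.

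The second question was whether CT26 cells moved when RAW products could reach them. In CT26 co-culture against CT26 alone 0 of 29 genes passed the limma test, where 0% of all genes passed. At an unadjusted p under 0.05 there were 0 of 29, against 107 of 13196 genes. With a block within each line there was 1 of 29 at that unadjusted p, against 752 of all genes, and 0 after adjustment under either block. The smallest adjusted p of the list with that block was 0.831, for Lpin1.

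Changes in CT26 were small in both directions. The mean was above 0 for 20 of 29 genes, against 45.3% of all genes, with a median of 0.08 against -0.01 log2 units. On both occasions 13 were higher in co-culture (23.8% of all genes) and 4 lower (30.1%), and 12 went opposite ways. The groups separated for 1 gene, Mvd, which was 8.70 and 8.72 in CT26 co-culture and 8.52 and 8.63 in CT26 alone, while 9.69% of all genes separated in that direction. The median was 0.02 on occasion 1 and 0.10 on occasion 2. Leaving out 1 array, which also breaks the pairing, moved it. It was -0.09 without the second CT26 alone array and -0.02 without the first CT26 co-culture array. It was 0.13 without the second CT26 co-culture array and 0.19 without the first CT26 alone array.

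The largest mean in CT26 was that of Lpin1, at 9.07 and 8.69 in CT26 co-culture and 8.80 and 8.45 in CT26 alone. It was higher by 0.27 and 0.24 on the separate occasions, a mean of 0.26 ± 0.18, and its groups overlapped because both were lower on occasion 2. With 1 array left out it ran from 0.07, without the first co-culture array, and 0.09, without the second alone array, up to 0.43 without the first alone array and 0.45 without the second co-culture array. Insig2 was 9.81 and 9.32 in CT26 co-culture and 9.59 and 9.25 in CT26 alone. It was higher in co-culture on both occasions, with a mean difference of 0.15 ± 0.20. The sign turned when the first co-culture array (-0.10) or the second alone array (-0.02) was left out, which also breaks the pairing. Elovl6 was 10.63 and 10.82 in CT26 co-culture and 10.81 and 10.85 in CT26 alone, with a mean of -0.11 ± 0.13 that was -0.02 without the first co-culture array and -0.20 without the second. Lss differed by 0.15 ± 0.21, with opposite signs on the occasions, and by 0.30 without the first co-culture array, 0.0017 without the second and 0.10 without the second alone array. The lowest mean was that of Tm7sf2, a sterol reductase gene, at -0.21 ± 0.34, which rested on occasion 2 (-0.46).

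The third question was whether the response to co-culture differed between the lines, taken as the RAW change minus the CT26 change. Again 0 of 29 genes passed, where 0.00758% of all genes did, and 0 with either block (0.0834% with the shared block and 0.743% within each line). At an unadjusted p under 0.05 there was 1 of 29, Elovl6, against 328 of 13196 genes. The difference was positive for 23 genes (54.1% of all genes), with a median of 0.16 against 0.02. It had 1 sign on both occasions for 14 positive genes (34.1%) and 3 negative ones (26.7%). The median was 0.27 on occasion 1 and 0.07 on occasion 2. Without the first CT26 alone array it was -0.03, and that omission also breaks the pairing of the samples. Elovl6 had the smallest p, with a difference of 0.45 ± 0.19 that was 0.45 on occasion 1 and 0.44 on occasion 2. Insig1 had the largest difference, 0.49 ± 0.37. With 1 array left out it ran from 0.21, without the first RAW co-culture array, to 0.77, without the second, and was 0.26 without the first CT26 alone array and 0.28 without the second CT26 co-culture array. Acaca was at 0.37 ± 0.22, and at 0.21 without the first RAW alone array. Mvk was at 0.24 ± 0.17, and at 0.16 without the first RAW co-culture array. Lss was at 0.31 ± 0.30, and ran from 0.02 without the second RAW co-culture array to 0.59 without the first, with 0.16 without the first CT26 co-culture array.

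The lines differed far more from each other than either did between conditions. In RAW alone against CT26 alone 8 of 29 genes passed (limma, adjusted p under 0.05), where 34.6% of all genes passed, so the share passing was no higher than the background. Of the 8, 1 was higher in RAW (17% of all genes) and 7 were lower (17.6%). With occasion as a block, shared or within each line, the same counts were reached, 16 in all, 1 higher and 15 lower. Of all genes 52.9% passed with the shared block (25.5% higher and 27.4% lower) and 58.6% with the block within each line (28.3% higher and 30.4% lower). The median of the 29 was -0.44, against -0.05 over all genes. Both RAW arrays lay below both CT26 arrays for 16 genes (37.1% of all genes) and above them for 2 (30.2%). This comparison shares the RAW alone and CT26 alone arrays with the co-culture comparisons, so the values are given side by side without relating them.

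At the probe sets used, the largest gap was in fatty acid elongation. Elovl6 was 8.94 and 9.02 in RAW alone against 10.81 and 10.85 in CT26 alone. It was 3.61-fold lower in RAW (-1.85 ± 0.13, adjusted p = 4.91e-05), and each line varied by a small fraction of that gap. Its other tested probe sets differed by -1.10 (1417403_at) and by 0.01 (1442656_at, with a mean of 5.81). Acaca was 8.79 and 9.11 in RAW alone and 10.01 and 10.21 in CT26 alone, 2.24-fold lower in RAW (-1.16 ± 0.16, adjusted p = 0.00134). Lpin1 was 7.65 and 7.70 in RAW alone and 8.80 and 8.45 in CT26 alone, 1.93-fold lower (-0.95 ± 0.18, adjusted p = 0.00663). Acly was also below CT26 on both occasions, by a mean of 0.57 (adjusted p = 0.0938, and 0.00156 with a block within each line). Fads1, Fads2 and Acss2, the desaturases and the acetate-activating enzyme, overlapped between the lines.

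In the sterol branch the lines differed in both directions at neighbouring steps. Cyp51, which demethylates lanosterol, was 9.64 and 9.23 in RAW alone against 11.36 and 10.97 in CT26 alone. This was 3.32-fold lower in RAW (-1.73 ± 0.20, adjusted p = 0.000522). The other tested Cyp51 probe sets differed by -2.08 and -1.22, the first a wider gap than that of Elovl6. Hsd17b7, the keto-reductase of sterol C4 demethylation, was the single gene that passed as higher in RAW, at 9.92 and 9.60 in RAW alone against 8.80 and 8.46 in CT26 alone (1.13 ± 0.22, 2.18-fold, adjusted p = 0.00716). Without the second CT26 alone array its difference was 0.96 and the adjusted p 0.0529. Its partner enzyme Nsdhl, a dehydrogenase of the same demethylation, went the other way, at 10.05 and 10.05 in RAW alone against 11.03 and 10.70 in CT26 alone (-0.81 ± 0.17, adjusted p = 0.00883). Msmo1, the oxidase that starts it, was -0.48 ± 0.24 (adjusted p = 0.174, and 0.00292 with a block within each line). Sqle (-0.44), Lss (-0.54) and Sc5d (-0.76), the last of these a sterol desaturase gene, were below CT26 on both occasions and passed with either block, while Ebp (-0.18), a sterol isomerase gene, Dhcr7 (0.05) and Tm7sf2 (0.27) passed under none of the 3 fits.

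The Hsd17b7 reading came from a probe set of the kind that can cross-hybridise (1457248_x_at), so its other probe sets were read. Probe set 1417871_at was 8.63 and 8.90 in RAW alone against 7.94 and 7.47 in CT26 alone, a difference of 1.06 (adjusted p over all probe sets 0.00814). Probe set 1448865_at differed by 0.65 (0.033). All 3 tested probe sets placed RAW above CT26, with no overlap. Over the 8 genes that passed, 11 of 12 other tested probe sets had the same sign as the one used, and 11 of 12 passed on their own. The exception to both was Elovl6 probe set 1442656_at, at 0.01. These genes were picked for passing on the same arrays, and the share passing over all probe sets was not computed.

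In the early steps Mvk was 8.24 and 8.36 in RAW alone and 9.27 and 9.33 in CT26 alone, 2.01-fold lower in RAW (SE of the log2 difference 0.12, adjusted p = 0.000621). Hmgcs1 was 10.63 and 10.50 in RAW alone and 11.72 and 11.21 in CT26 alone, 1.87-fold lower (-0.90 ± 0.18, adjusted p = 0.0087). Fdft1, which joins isoprenoid units into squalene, had a gap of the same order but a wide error at its _x_at probe set (-0.83 ± 0.35, adjusted p = 0.112). That probe set was lower on occasion 2 in both lines, and with a block within each line its adjusted p was 0.000266. Fdft1 probe set 1448130_at differed by -0.92 ± 0.13 (limma adjusted p over all probe sets 0.0026 without a block). The Fdft1 probe sets 1438918_at (-0.04) and 1438919_x_at (-0.18) did not pass. Pmvk, Mvd, Idi1 and Fdps lay between -0.12 and -0.01 and their groups overlapped. None of the 5 control and transport genes passed without a block at the probe set used. Of their other tested probe sets, Insig2 1417981_at (-0.74, limma adjusted p over all probe sets 0.0224) and Stard4 1455011_at (-0.54, 0.0427) passed without a block, and the rest did not. Insig2 (-0.51 ± 0.20) and Stard4 (-0.53 ± 0.25) were below CT26 on both occasions and passed with either block (adjusted p 0.00285 and 0.00192 within each line), while Srebf2 (-0.05), Scap (-0.07) and Insig1 (-0.16) overlapped.

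**Figure D4:**
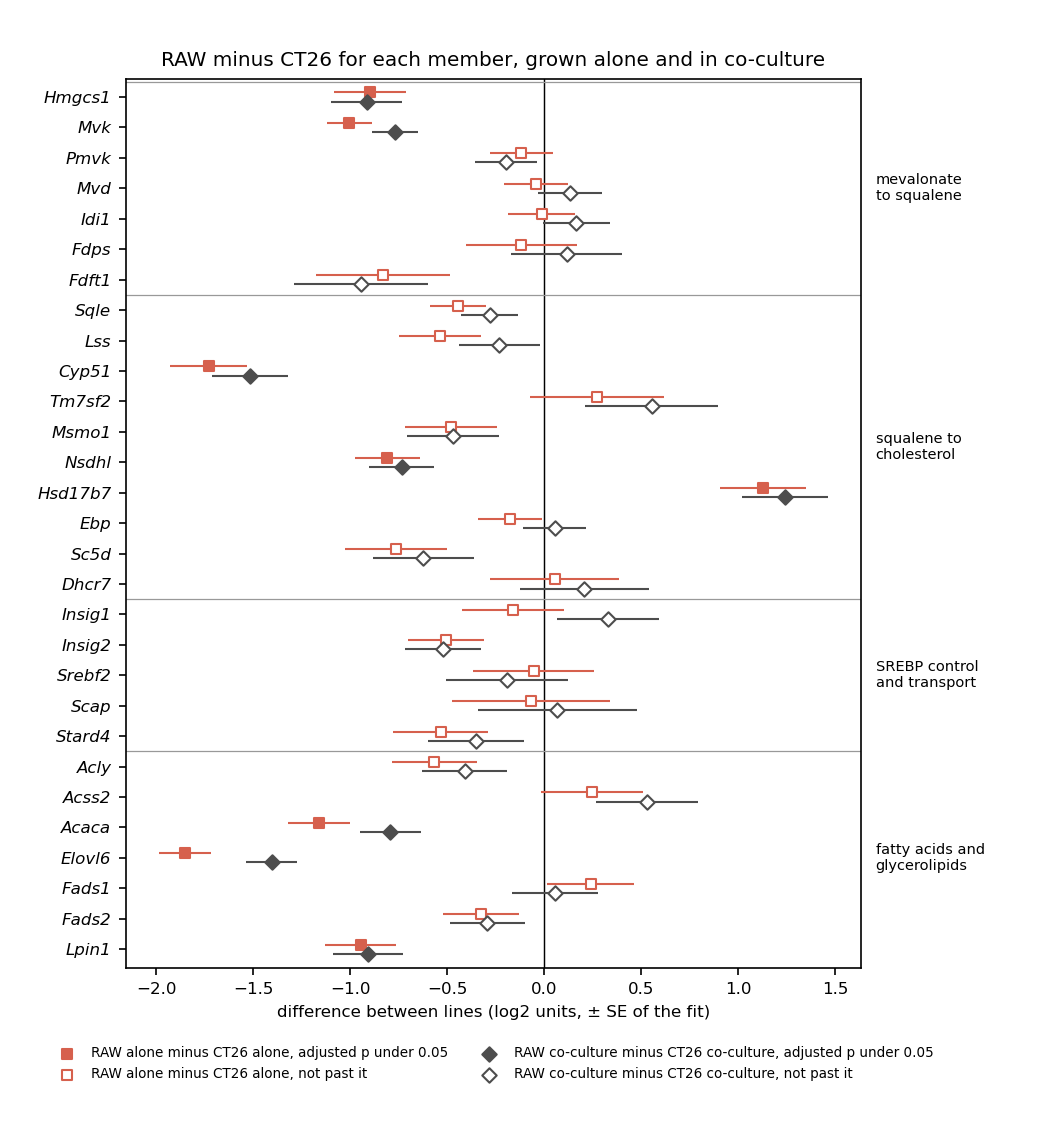
RAW minus CT26 for each gene in log2 units, grown alone (squares) and in co-culture (diamonds), with bars for the SE of the fit (n = 2 arrays per group) and filled symbols where the adjusted p was under 0.05. Hsd17b7 is the filled symbol right of 0 in both conditions, at 1.13 and 1.24, and Elovl6 and Cyp51 lie furthest left.

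Between RAW co-culture and CT26 co-culture 8 genes passed, and all 8 were those that passed between the lines grown alone. Of them 1 was higher and 7 were lower, where 34.8% of all genes passed (17.7% higher and 17% lower). With a block within each line 18 passed, 4 higher and 14 lower (58% of all genes, 29% higher and 28.9% lower). With the shared block 15 passed, 2 higher and 13 lower (52.1%, 26.2% higher and 25.9% lower). Hsd17b7 was 10.08 and 9.68 in RAW co-culture against 8.83 and 8.44 in CT26 co-culture (1.24 ± 0.22, adjusted p = 0.00467). Elovl6 was 9.20 and 9.43 in RAW co-culture against 10.63 and 10.82 in CT26 co-culture, 2.65-fold lower in RAW (-1.41 ± 0.13, adjusted p = 0.000204). The 3 further genes higher in RAW with the block within each line were Insig1 (0.33, adjusted p = 0.0193), Acss2 (0.53, 0.0186) and Tm7sf2 (0.55, 0.0284). The median gap of the 29 was -0.28 in co-culture, against -0.04 over all genes.

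Promoter windows of these genes were read for the letters of motifs known from the regulators of the pathway. RefSeq windows on GRCm38.p6, running from 250 bases before to 50 bases after a start, matched 25 of the 30 genes, with 31 windows, and were searched on both strands for 4 motifs. Fdps, Sqle, Fads1, Stard4 and Fdft1 were not matched. The sterol regulatory element TCACNCCAC was in 1 of 31 windows (3.23%), that of Hmgcs1, against 1.24% of 32851 windows of all genes. The NF-Y box CCAAT was in 19 of 31 (61.3%), against 37.4% of all windows. The Sp1 box GGGCGG was in 24 of 31 (77.4%), against 35.7%, and the E-box CACGTG in 6 of 31 (19.4%), against 7.15%. Some genes had several windows, and those of Scap overlap and hold the same E-box. Counted by gene, the NF-Y box was in 19 of 25, the Sp1 box in 21 and the E-box in 5. The share by gene over all genes was not computed. The windows of Elovl6, Acaca and Lpin1 held none of these letters. The counts are descriptions of letters and not of binding, and the sequence is that of the reference strain.

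Windows are printed for 4 genes, read along the gene's strand with the motif matches of either strand in capitals. Hmgcs1 is shown for its sterol regulatory element TCACCCCAC, and lies at chr13:119690101-119690400 on the plus strand. Cyp51 (chr5:4104648-4104947, minus strand) and Hsd17b7 (chr1:169969156-169969455, minus strand) are shown as the sterol genes with opposite gaps between the lines. Insig1 (chr5:28071162-28071461, plus strand) is shown for the co-culture value nearest the threshold with a block within each line.
Hmgcs1: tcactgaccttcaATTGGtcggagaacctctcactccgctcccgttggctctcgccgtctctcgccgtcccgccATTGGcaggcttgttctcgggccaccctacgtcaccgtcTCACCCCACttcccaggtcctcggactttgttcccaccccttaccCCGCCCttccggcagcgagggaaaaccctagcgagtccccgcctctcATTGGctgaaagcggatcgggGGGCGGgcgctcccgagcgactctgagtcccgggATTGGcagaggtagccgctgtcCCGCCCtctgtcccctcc
Cyp51: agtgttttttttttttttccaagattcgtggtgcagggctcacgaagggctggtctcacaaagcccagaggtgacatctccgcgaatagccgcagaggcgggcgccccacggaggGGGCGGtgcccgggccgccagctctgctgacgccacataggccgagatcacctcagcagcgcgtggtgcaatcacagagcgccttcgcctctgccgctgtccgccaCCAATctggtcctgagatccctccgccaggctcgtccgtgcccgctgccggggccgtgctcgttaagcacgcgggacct
Hsd17b7: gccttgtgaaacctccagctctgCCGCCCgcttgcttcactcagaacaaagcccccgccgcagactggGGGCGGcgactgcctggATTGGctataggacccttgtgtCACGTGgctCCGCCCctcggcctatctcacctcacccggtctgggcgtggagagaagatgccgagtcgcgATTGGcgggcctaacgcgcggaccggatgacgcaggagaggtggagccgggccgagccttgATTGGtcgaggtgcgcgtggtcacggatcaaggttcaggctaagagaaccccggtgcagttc
Insig1: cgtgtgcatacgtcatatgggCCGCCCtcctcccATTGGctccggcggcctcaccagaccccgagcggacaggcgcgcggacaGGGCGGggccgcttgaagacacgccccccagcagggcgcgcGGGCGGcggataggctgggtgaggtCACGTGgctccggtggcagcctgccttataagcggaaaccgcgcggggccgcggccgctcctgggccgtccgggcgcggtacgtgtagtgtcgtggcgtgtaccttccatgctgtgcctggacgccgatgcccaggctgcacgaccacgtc
Cyp51 and Hsd17b7, whose levels went opposite ways between RAW and CT26, both carried NF-Y and Sp1 boxes, and Hsd17b7 also carried the E-box that Insig1 has.

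The occasions themselves separated these genes. In a fit of occasion 2 minus occasion 1 across all 4 groups, 13 of 29 genes passed (limma, 3 residual degrees of freedom), 5 higher and 8 lower, where 28.1% of all genes passed, 16.8% higher and 11.3% lower. In all 4 groups 8 genes were higher on occasion 2 (24.8% of all genes) and 11 were lower (21.8%). The median was -0.21, against 0.01 over all genes. The count was 7 when any 1 of the 4 co-culture arrays was left out, and at most 12 with any array left out.

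The genes that rose on occasion 2 included Scap, at 10.85 and 10.87 in RAW co-culture and RAW alone and 10.97 and 10.90 in CT26 co-culture and CT26 alone, against 10.31, 10.11, 10.06 and 10.23 in the same groups on occasion 1 (0.72 ± 0.08, adjusted p = 0.00204). Dhcr7 (0.56 ± 0.09, adjusted p = 0.00597), Srebf2 (0.53 ± 0.08, 0.00541), Fads1 (0.34 ± 0.08, 0.021) and Acly (0.33 ± 0.08, 0.025) also rose. The genes that fell were Fdft1 (-0.59 ± 0.08, adjusted p = 0.00377), Insig1 (-0.44 ± 0.07, 0.00541), Stard4 (-0.40), Sc5d (-0.38), Msmo1 (-0.37), Hsd17b7 (-0.36), Cyp51 (-0.28) and Ebp (-0.22). Thus 5 of the 8 that fell act between squalene and cholesterol, and the gene of the last reduction there, Dhcr7, rose. Insig1 thus fell by 0.44 between occasions, beside its co-culture difference of 0.43 in RAW. Of 18 other tested probe sets of these 13 genes, 16 shifted in the same direction, though often less. Hsd17b7 shifted by -0.36 on the probe set used, and by -0.04 and -0.12 on the others. The other probe sets of Fdft1 shifted by -0.11 to -0.07, against -0.59 on its _x_at probe set, and those of Sc5d by -0.16 and -0.0024. The 2 that went the other way belonged to Fads1 (-0.14) and Msmo1 (0.0053).

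**Figure D5:**
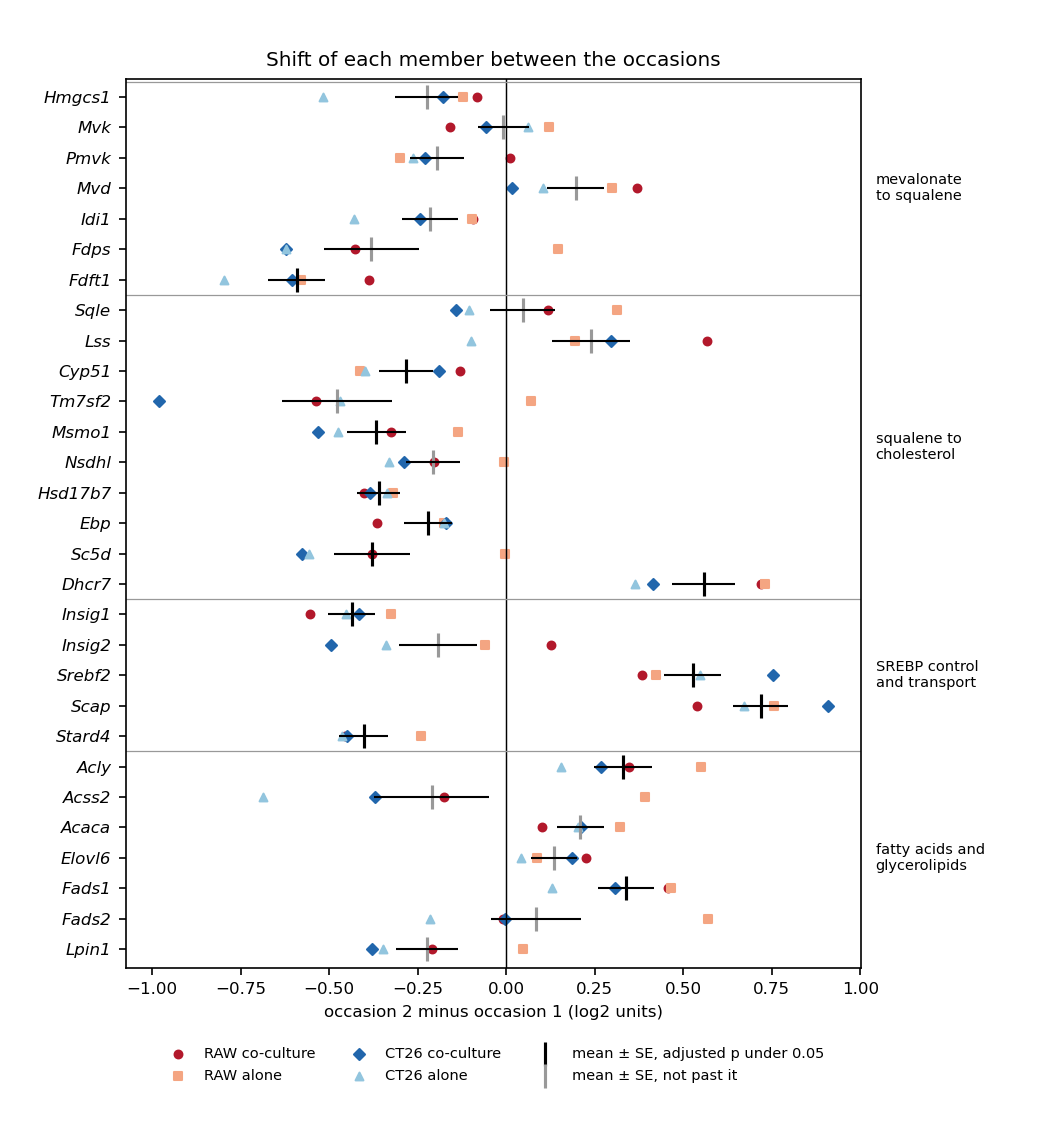
Occasion 2 minus occasion 1 for each gene in log2 units, with 1 symbol per group and a vertical tick with bars for the mean ± SE of the fit (black where the adjusted p was under 0.05). Scap, Srebf2 and Dhcr7 lie right of 0 in all 4 groups, and Fdft1, Insig1 and Stard4 lie left of 0 in all 4.

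Neighbouring genes of the pathway that are not on the list were read from lists of sterol genes (12 tested of 18), fatty acid genes (19 of 22) and genes of the liver X receptors and cholesterol efflux (7 of 10). In RAW co-culture against RAW alone 0, 0 and 0 of these passed without a block, with 0, 3 and 3 at an unadjusted p under 0.05. With the shared block 0, 3 and 1 passed, where 1.11% of all genes did. With a block within each line 0, 4 and 1 passed, where 3.56% of all genes did, namely Scd2, Scd1, Acsl3 and Me1, and Abca1. Scd2, a stearoyl-CoA desaturase acting on saturated chains such as those Elovl6 makes, was 12.84 and 12.36 in RAW co-culture and 10.83 and 11.08 in RAW alone (1.64 ± 0.23, adjusted p = 0.0585 without a block and 0.00329 with it). Scd1 was 7.85 and 7.48 in RAW co-culture and 5.36 and 6.65 in RAW alone (1.66 ± 0.42, adjusted p = 0.414 without a block and 0.0455 with it). Abca1, the cholesterol exporter, was 8.05 and 7.26 in RAW co-culture and 6.35 and 6.38 in RAW alone (1.29 ± 0.35, 0.509 without a block and 0.0122 with it). Acsl3, an acyl-CoA synthetase, differed by 0.59 and Me1, the malic enzyme that supplies NADPH, by -0.56. In CT26 co-culture against CT26 alone none of the 3 lists had a gene past the adjusted threshold in limma, with 0, 0 and 1 at an unadjusted p under 0.05.

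Between RAW alone and CT26 alone 2, 10 and 4 genes of these 3 lists passed, out of 12, 19 and 7 tested, where 34.6% of all genes passed. The sterol genes were Npc1, a lysosomal cholesterol exporter (1.54 ± 0.26), and Mbtps2, a protease that releases SREBP (0.94 ± 0.15), both higher in RAW. Of the fatty acid genes 3 were higher and 7 lower in RAW, and the lower ones included Fasn, fatty acid synthase, at 10.82 and 11.18 in RAW alone against 11.60 and 12.03 in CT26 alone (-0.82 ± 0.24, adjusted p = 0.0354), and Scd1 at 5.36 and 6.65 in RAW alone against 11.75 and 11.21 in CT26 alone. Acacb, Dgat1, Dgat2, Acsl3 and Scd2 also passed as lower, and Hacd3, Elovl1 and Lpin2 passed as higher. Of the efflux genes Cyp27a1, a sterol hydroxylase, was higher (2.25 ± 0.15), and Abca1 (-2.93 ± 0.35), Mylip and Lpcat3 were lower.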

How the data were processed

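The deposited values are log2 expression values, 1 column per array, made by the authors using RMA (affy), per the submitters' processing notes, which name no version. Once sorted, the columns agreed to within 0.158 log2 units. The arrays thus share nearly 1 distribution, and a change in total RNA per cell cannot be seen. RMA can compress low signals, so folds of dim probe sets may be understated, which was not tested here. Precision is limited by the 2 arrays per group.

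Of 45101 probe sets, 64 controls were left out. Of the remaining 45037, a single symbol was annotated for 34945 and several for 932, and 9160 are not in the platform annotation; Entrez identifiers of 34741 matched the RefSeq table of GRCm38.p6, and 0 symbols changed. The brightest probe set of each gene by its mean over 8 arrays stood for it (18193 genes). Genes were tested (13196) if both arrays of any group exceeded their own 40th percentile. limma 3.58.1 under R 4.3.3 fitted 4 group means (4 residual degrees of freedom, no trend, two-sided, Benjamini-Hochberg adjustment), and the fit was tested on simulated data.

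Replicate numbers mark the occasions: across genes, arrays with 1 number deviated together from their group means (r = 0.765 in RAW, 0.754 in CT26, and 0.484 to 0.561 for a RAW and a CT26 array). They were taken to pair the samples, and the alternatives included a block that both lines share (3 residual degrees of freedom) or that each line has to itself (2).

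Values by array are given for the genes past the threshold, or else the 5 with the largest moderated statistics, in each comparison, and for others named for their role; single probe sets and Fdps, Acss2, Sqle and Dhcr7 were picked after their values were seen. The genes, lists and motifs were chosen with earlier results of these data known.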

Additional observations from a re-analysis of the deposited data

Results flagged for a closer look

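For 5 genes the change with co-culture went opposite ways in the lines on both occasions. How many of all genes did so was not counted, so no excess among the listed genes can be read from this. Insig1 was higher in RAW co-culture by 0.54 and 0.31 log2 units on the separate occasions and lower in CT26 co-culture by 0.08 and 0.05, a difference of 0.49. Elovl6 differed by 0.45 between the lines, Acaca by 0.37 and Ebp, a sterol isomerase gene, by 0.23. Fads1 was the reverse, lower in RAW co-culture and higher in CT26 co-culture, with a difference of -0.18. The difference itself was tested with limma and passed for none of the 5, with adjusted p = 1.00 without a block and 0.21 to 0.637 with a block within each line. No group had the 4 or more arrays that a search for outlying arrays needs.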

How the results depend on the processing

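Settings tried were the block by occasion (2 forms), the mean of all probe sets of a gene, no filter, a filter at the 60th percentile, cyclic loess, median centring, a variance trend, the compared groups alone, each array left out and, chosen after seeing the data, no probe sets ending in _x_at or _s_at. No gene of the list passed in either co-culture comparison or in their difference under any of them.

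Between RAW alone and CT26 alone 16 passed with either replicate block and 13 with the mean of all probe sets, against 8, and 7 to 11 with an array left out. In co-culture 15 and 18 passed with the shared and within-line replicate block, and 7 to 8 with an array left out. By occasion 7 to 12 passed with an array left out. With an array left out, the medians ran from 0.15 to 0.26 for RAW, -0.0889 to 0.192 for CT26, -0.0346 to 0.249 for the difference, -0.49 to -0.29 and -0.31 to -0.22 between the lines alone and in co-culture, and -0.24 to -0.14 by occasion. Insig2 in CT26 ran from -0.10 to 0.40. Lss in CT26 turned to -0.0596 without _x_at and _s_at probe sets. The replicate block left the count of listed genes past the adjusted threshold at 0 in both lines' co-culture comparisons and in their difference. It raised the RAW count at an unadjusted p under 0.05 (limma) from 2 to 9 when shared and to 12 within each line. Calls it changed for other probe sets and for neighbouring genes stand beside those results. The cause of the moves was not tested. Leaving out an array also breaks the pairing.

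Over all genes, the count in RAW was 33 without a block, 146 with the shared one and 470 with the one within each line, and between the lines alone 4563, 6978 and 7735. The median SE of the RAW change over all genes was 0.165 without a block and 0.0938 with a block within each line.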
